A study of Mus musculus with 10 samples.

Results

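Dendritic cells speak to T cells through a small set of surface proteins, and the genes for 7 of them are described here: Cd40, Cd80, Cd86, Cd83, Cd274, Pdcd1lg2 and Icosl. They were chosen by name, as costimulatory and PD-1 ligand genes of dendritic cells, and all 7 were found by symbol among the 45706 genes of the deposited table. They were read in splenic type 2 conventional dendritic cells (cDC2s) and, for comparison, in splenic T cells. The controls were Cd47f/f mice, with floxed Cd47 alleles. Cd47ΔT mice, going by the name, lack Cd47 in T cells. The sources used here do not give the Cre driver, the age of the mice, how the cells were isolated or whether animals were pooled. There were 3 cDC2 libraries and 2 T cell libraries per genotype, and the study's title concerns the part of the surface protein CD47 in protecting T cells from dendritic cells.

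A naive T cell needs a signal from its antigen receptor and a second one from costimulation. CD80 and CD86 on the dendritic cell bind CD28, which activates the T cell, and CTLA-4, which restrains it. ICOS ligand, encoded by Icosl, engages ICOS, a CD28 relative that supports helper T cells. PD-L1 (Cd274) and PD-L2 (Pdcd1lg2) bind the inhibitory receptor PD-1, and PD-L1 can also bind CD80. CD40 works in the other direction: it receives CD40 ligand from activated helper T cells and, through TRAF adaptors and NF-kB, raises costimulatory genes in the dendritic cell. CD83 marks mature dendritic cells and stabilizes MHC class II and CD86 by opposing the ubiquitin ligase MARCH1.

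Cd274 and Pdcd1lg2 lie side by side on chromosome 19, on the plus strand and 22.8 kb apart, with 0 protein-coding genes between them (GENCODE M21, GRCm38). Cd274 spans 29367455 to 29388095 and Pdcd1lg2 spans 29410919 to 29471161. Their promoter stretches are shown because the 2 genes bind the same receptor, share a locus and, as described below, differed in the direction of their fold changes in cDC2s. Of the 7 genes, 4 had an entry in the RefSeq promoter table used here (GRCm38.p6), which gives 250 bases before and 50 after the start of transcription. Both sequences read 5′ to 3′ on the plus strand, Cd274 at chr19:29367188-29367487 and Pdcd1lg2 at chr19:29410669-29410968, and capitals mark a match to an outline of the NF-kB binding site, GGG and CC with any 5 bases between them.
Cd274: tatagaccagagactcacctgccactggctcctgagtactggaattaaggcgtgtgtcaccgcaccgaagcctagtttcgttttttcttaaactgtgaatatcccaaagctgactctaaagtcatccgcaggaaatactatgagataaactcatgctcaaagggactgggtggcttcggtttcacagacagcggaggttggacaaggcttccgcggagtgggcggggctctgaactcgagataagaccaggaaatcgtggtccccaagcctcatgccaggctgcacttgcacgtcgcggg
Pdcd1lg2: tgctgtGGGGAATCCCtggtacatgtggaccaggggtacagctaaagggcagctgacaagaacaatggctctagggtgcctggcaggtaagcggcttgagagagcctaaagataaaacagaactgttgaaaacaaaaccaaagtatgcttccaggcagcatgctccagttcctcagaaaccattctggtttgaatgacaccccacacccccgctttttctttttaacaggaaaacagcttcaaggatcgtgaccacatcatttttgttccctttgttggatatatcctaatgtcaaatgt
The Pdcd1lg2 stretch held 1 match, GGGGAATCCC, which begins 244 bases before the start, and the Cd274 stretch held 0. The Icosl and Cd80 promoters held 2 each. The Cd80 window, chr16:38458683-38458982, lies inside the GENCODE M21 span of the gene, which begins at 38455561. Searched on both strands, that outline was found in 50.8% of all 32851 promoters of the same length, so a match is common. None of the 4 promoters held an outline of a STAT site (TTC and GAA with any 3 bases between, in 8.3% of promoters). None held a pair of IRF half-sites (GAAA and GAAA around any 2 bases, in 3.44%) or an ETS and IRF composite (GGAA and GAAA around any 2 bases, in 2.72%). A match is a description of letters, and its absence says only that the letters are not in the window. The remaining genes lie apart: Cd40 on chromosome 2 (165055627 to 165072948), Cd83 on chromosome 13 (43784775 to 43803132) and Icosl on chromosome 10 (78069302 to 78083913), all on the plus strand. Cd86 (36603869 to 36666081, minus strand) and Cd80 (38455561 to 38496335, plus strand) both lie on chromosome 16, which also carries Cd47. Pdcd1lg2 overlaps A930007I19Rik on the other strand, and whether reads were counted by strand is not known here, so reads of these 2 genes may be mixed.

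The table lists the genes as ENSMUSG00000017652 (Cd40), ENSMUSG00000075122 (Cd80), ENSMUSG00000022901 (Cd86), ENSMUSG00000015396 (Cd83), ENSMUSG00000016496 (Cd274), ENSMUSG00000016498 (Pdcd1lg2) and ENSMUSG00000000732 (Icosl). The values are TPM, relative transcript abundances that correct for transcript length and allow levels of different genes to be set side by side. They keep no sequencing depth, so the counting error behind each value is unknown. Cell type markers were checked against the labels. The CD3 chain gene Cd3g was at 0 in all 6 cDC2 libraries and between 851 and 957 TPM in T cells. The 11 T cell markers together summed to 16.7 to 23.4 TPM in control and 19.5 to 23.1 TPM in Cd47ΔT cDC2s, mostly through Cd5. In T cells they summed to 5196 to 5289 TPM in control and 4822 to 5299 TPM in Cd47ΔT libraries. In cDC2s the integrin gene Itgax stood between 352 and 447 TPM. The 8 type 1 dendritic cell markers summed to 964 to 1315 TPM in cDC2s, mostly through Wdfy4 (824 to 1151 TPM) and Batf3 (121 to 147 TPM), and each of the other 6, Xcr1 among them, stayed at or under 12.3 TPM. cDC2 libraries correlated at Pearson r from 0.929 to 0.966 and T cell libraries at 0.947 to 0.982 (log2 values across genes, which are not independent replicates). Control cDC2 library 3 stood apart, with r of at most 0.937 to any other. Cd47 itself fell in T cells (log2 fold change -1.95 ± 0.26, limma's adjusted p = 0.0112) and averaged 148.7 and 148.5 TPM in control and Cd47ΔT cDC2s. The labels do not say whether replicates are separate mice, so the p-values reflect the spread among these libraries alone, and that spread may be technical.

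All 7 genes were expressed in control cDC2s, at 3 levels that did not overlap. Icosl and Cd83 were highest, between 112 and 193 TPM in single libraries. Cd274, Cd86 and Cd40 followed between 38.3 and 77.0 TPM, and Cd80 and Pdcd1lg2 were lowest, between 18.0 and 29.3 TPM. Among the genes tested in cDC2s, the mean level of Cd83 lay at percentile 94.6 and that of Pdcd1lg2 at percentile 56.3. In the highest and lowest levels the ranges overlapped, so the order within them is not resolved: Icosl averaged 146 ± 10.8 TPM and Cd83 143 ± 43.5 TPM (SD, n = 3), and Pdcd1lg2 23.7 ± 5.70 TPM and Cd80 23.6 ± 5.15 TPM. In the middle level every Cd274 value was above every Cd40 value, and the range of Cd86 overlapped both. The PD-1 ligand Cd274 was thus nearer in level to Cd86 than to its neighbour Pdcd1lg2. In Cd47ΔT cDC2s every Cd83 value was above every Icosl value. The 7 genes together summed to between 487 and 562 TPM in control and between 581 and 688 TPM in Cd47ΔT cDC2 libraries.

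**Figure D1:**
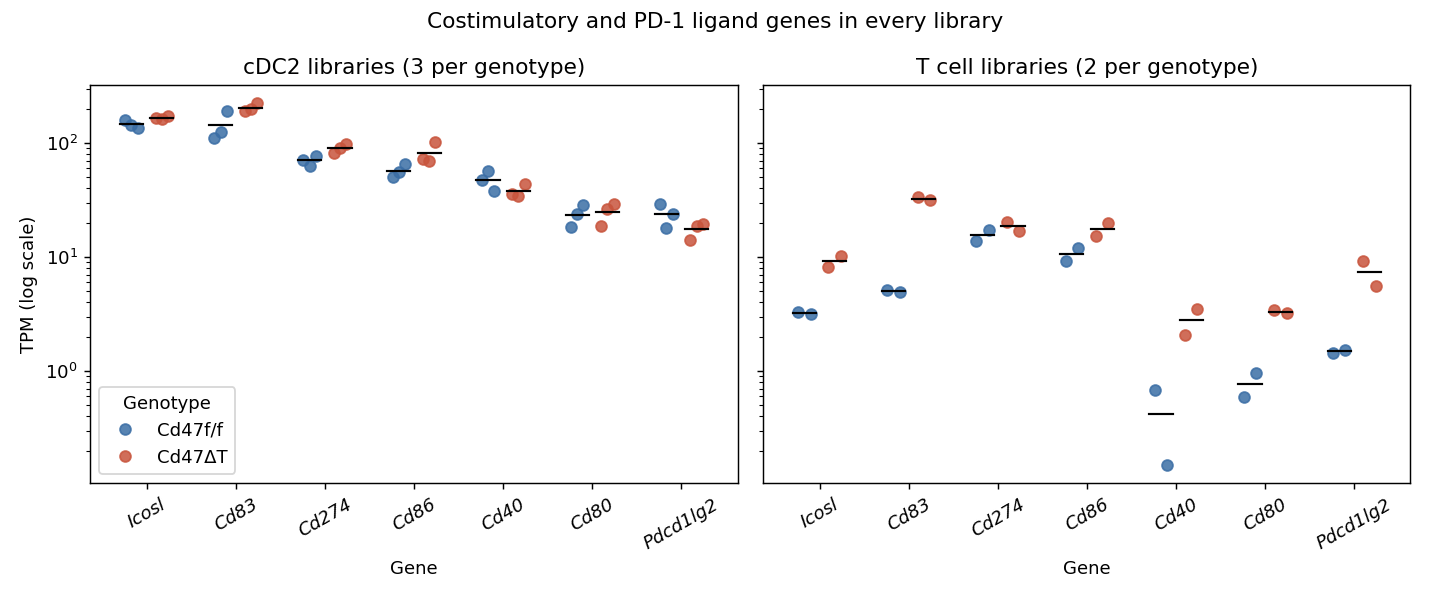
TPM of the 7 genes in each library on a log axis, with cDC2 libraries on the left and T cell libraries on the right; points are libraries, coloured by genotype, and short lines are group means. In cDC2s the genotypes overlap for Cd40, Cd80, Cd83 and Pdcd1lg2 and lie close together for the rest, while in T cells the Cd47ΔT libraries lie above the controls for every gene except Cd274.

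The first comparison asked whether cDC2s carry different amounts of these transcripts when they share the spleen with T cells in which Cd47 is deleted. Cd86, Cd83, Cd274 and Icosl read 1.14 to 1.43 times their control means in Cd47ΔT cDC2s, Cd80 1.06 times, and Cd40 and Pdcd1lg2 0.800 and 0.739 times. None of the 7 passed the test over all genes, in which limma called 76 of 12058 genes (0.63%), 30 higher (0.249%) and 46 lower (0.381%). At an unadjusted p under 0.05 there were 3 of the 7 genes (Cd86, Cd83 and Cd274), against 1618 of all genes tested. These 3 p-values were 0.0212, 0.0225 and 0.0189 by limma. In bulk libraries a smaller number of cells with a transcript and less of it per cell cannot be told apart.

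Among the ligands of CD28 and CTLA-4, Cd86 stood at 50.7, 56.0 and 64.9 TPM in control and at 72.8, 69.4 and 101 TPM in Cd47ΔT cDC2s. The groups did not overlap, and Cd47ΔT library 3 was the highest of the 6. Its log2 fold change was 0.48 ± 0.17 (SE; 95% interval 0.0944 to 0.87, limma's adjusted p = 0.268). Cd80 stood at 18.3, 23.9 and 28.6 TPM in control and at 18.9, 26.4 and 29.4 TPM in Cd47ΔT libraries. The 2 groups covered nearly the same range, with a log2 fold change of 0.0741 ± 0.22 (95% interval -0.44 to 0.58, limma's adjusted p = 0.921). That interval still admits changes of Cd80 as large as the one read for Cd86. Icosl, the ICOS ligand gene, stood at 158, 144 and 137 TPM in control and at 165, 163 and 171 TPM in Cd47ΔT libraries. Here too every Cd47ΔT value exceeded every control value, by a small margin (log2 fold change 0.19 ± 0.0910, 95% interval -0.0210 to 0.40, limma's adjusted p = 0.424).

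Of the PD-1 ligands, Cd274 stood at 71.75, 62.8 and 77.0 TPM in control and at 82.1, 90.25 and 97.7 TPM in Cd47ΔT cDC2s. The groups did not overlap, and the log2 fold change was 0.35 ± 0.12 (95% interval 0.0755 to 0.62, limma's adjusted p = 0.257). Pdcd1lg2 pointed the other way, at 29.3, 18.0 and 23.7 TPM in control and at 14.2, 18.7 and 19.6 TPM in Cd47ΔT libraries. Its groups overlapped through control library 2, and the log2 fold change was -0.40 ± 0.21 (95% interval -0.89 to 0.0915, limma's adjusted p = 0.476). Cd274, Cd86 and Icosl were the genes of the 7 whose genotypes did not overlap, all higher in Cd47ΔT cDC2s. Over all genes tested, 6.38% were higher without overlap and 13.5% lower without overlap.

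The receptor gene Cd40 stood at 47.1, 57.3 and 38.3 TPM in control and at 36.0, 34.3 and 43.9 TPM in Cd47ΔT cDC2s. The highest 2 values were controls, yet the groups overlapped (log2 fold change -0.30 ± 0.17, 95% interval -0.70 to 0.0972, limma's adjusted p = 0.512). The maturation marker Cd83 stood at 112, 125 and 193 TPM in control and at 192, 198 and 225 TPM in Cd47ΔT libraries. Control library 3, the one that stood apart, read as high as Cd47ΔT library 1, and the other controls lay well below. The log2 fold change of Cd83 was 0.55 ± 0.19 (95% interval 0.10 to 1.0, limma's adjusted p = 0.272). Without control library 3 it was 0.79, and limma's adjusted p was 0.0611 (0.0611 to 0.509 over all alternatives). The median log2 fold change of the 7 genes was 0.19, against -0.0729 over all genes tested.

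Markers and RNA classes of the cDC2 libraries were set beside these values. Small non-coding RNAs took 21.1% to 27.4% of TPM in control and 26.2% to 30.4% in Cd47ΔT libraries, which overlapped. With TPM rescaled to protein-coding genes, an alternative added after seeing the data, the log2 fold change of Cd274 was 0.42 (limma's adjusted p = 0.125, from 0.125 to 0.475 over all alternatives) and that of Pdcd1lg2 -0.34 (0.545, from 0.317 to 0.751), and none of the 7 was called. The 12 cDC2 markers summed to 1807 to 1915 TPM in control and 1582 to 1608 TPM in Cd47ΔT libraries, without overlap. Limma called 2 of the 12 lower and 0 higher, against 0.381% and 0.249% of all genes. Without overlap 7 were lower and 0 higher, against 13.5% and 6.38% of all genes. The 10 B cell markers summed to 221 to 274 TPM and 122 to 170 TPM, also without overlap. Most of those tested did not share this fall. Of the 5 B cell markers tested, 3 had a positive and 2 a negative log2 fold change. Their median was 0.25, and limma called 0 of them. The 10 red pulp macrophage markers summed to 199 to 315 TPM and 148 to 235 TPM, which overlapped. The part of these cells in the values of the 7 genes was not tested.

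**Figure D2:**
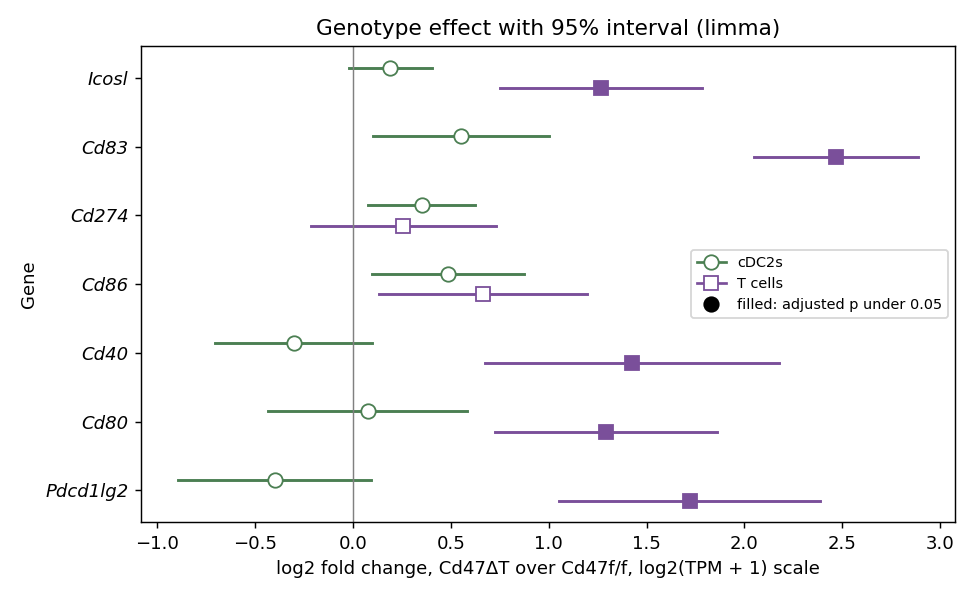
Log2 fold change of each gene in Cd47ΔT against control (x axis, from log2(TPM + 1) values) with its 95% interval from limma, for cDC2s (circles) and T cells (squares); filled symbols have an adjusted p under 0.05. No cDC2 symbol is filled, while those of Cd83, Pdcd1lg2, Cd40, Cd80 and Icosl are filled in T cells.

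Because PD-L1 and PD-L2 share a receptor, their balance within a library was read as a ratio of TPM, a measure chosen after the values were seen. Cd274 exceeded Pdcd1lg2 by 2.45, 3.50 and 3.25 times in control and by 5.78, 4.83 and 4.99 times in Cd47ΔT cDC2s. The ratio averaged 3.07 ± 0.550 and 5.20 ± 0.505 (SD, n = 3), and the groups did not overlap (two-sided exact permutation p = 0.1, the smallest that 3 against 3 libraries allow). The corresponding ratio of the CD28 ligands, Cd86 over Cd80, was 2.78, 2.35 and 2.27 in control and 3.86, 2.63 and 3.45 in Cd47ΔT cDC2s. These groups overlapped (exact permutation p = 0.2). In T cells both ratios were lower in the Cd47ΔT libraries. Cd274 over Pdcd1lg2 was 9.49 and 11.3 in control and 2.20 and 3.07 in Cd47ΔT libraries, and Cd86 over Cd80 was 15.8 and 12.5 in control and 4.39 and 6.17 in Cd47ΔT libraries (exact permutation p = 0.333 for each, the smallest that 2 against 2 allow).

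**Figure D3:**
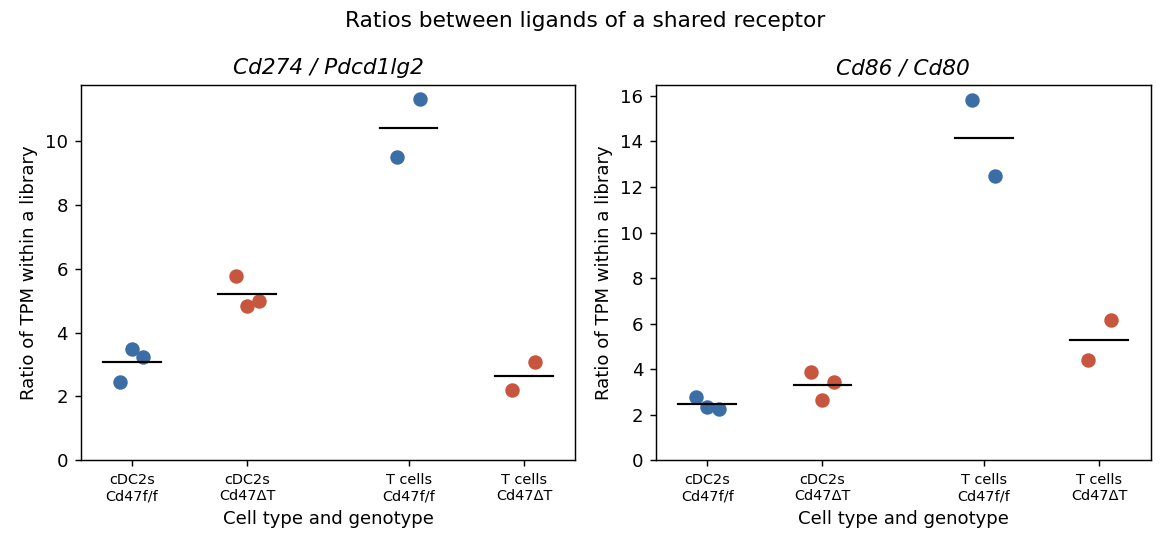
Ratio of TPM within each library for the PD-1 ligands (left) and for the ligands of CD28 and CTLA-4 (right), by cell type and genotype; points are libraries and lines are means. The PD-1 ligand ratio is 2.45 to 3.50 in control and 4.83 to 5.78 in Cd47ΔT cDC2s, and in T cells it is lower in the Cd47ΔT libraries.

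The genes that act around these ligands in dendritic cells were read next, from lists that were chosen with earlier results of these data known. Of 23 maturation genes tested, which conventional dendritic cells raise as they leave for the T cell zone, 3 rose and 0 fell in Cd47ΔT cDC2s. Over all genes tested 0.249% rose and 0.381% fell. Without overlap 12 were higher and 1 lower (6.38% and 13.5% of all genes), and the median log2 fold change was 0.60 against -0.0729 over all genes. Mreg, which encodes melanoregulin, rose from 95.7 ± 9.05 to 179 ± 23.3 TPM (SD, n = 3; log2 fold change 0.89 ± 0.13, limma's adjusted p = 0.0293). Samsn1, an adaptor protein gene, rose from 90.2 to 144 TPM (log2 0.66 ± 0.0934), and the Rab GTPase-activating protein gene Tbc1d4 from 235 to 355 TPM (log2 0.59 ± 0.0924). The best known members of the list did not pass. The actin-bundling gene Fscn1 read 84.0 and 144 TPM (log2 fold change 0.78, limma's adjusted p = 0.122) and the homing receptor gene Ccr7 48.4 and 66.1 TPM (log2 0.45, limma's adjusted p = 0.331), both named after their values were seen.

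In the pathway that CD40 feeds, 1 of 22 CD40 and NF-kB signalling genes rose and 0 fell (0.249% and 0.381% of all genes). It was Relb, the NF-kB subunit of the alternative pathway in dendritic cells. Relb stood at 267, 287 and 261 TPM in control and at 399.7, 395 and 449.7 TPM in Cd47ΔT cDC2s. The groups were far apart relative to their spread (log2 fold change 0.61 ± 0.0905, limma's adjusted p = 0.0364). The list's median log2 fold change was 0.0250. Leaving out any 1 of the 6 libraries ended the calls of Relb, Mreg, Samsn1, Tbc1d4 and Lgals9, with limma's adjusted p between 0.0660 and 0.154, and so did testing with no filter (0.0544 to 0.0787) or without a variance trend (0.0791 to 0.154). The call of Tbc1d4 also ended in 1 fit of all libraries (limma's adjusted p = 0.216). Their log2 fold changes kept their sign in every alternative.

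Interferon receptor and JAK-STAT genes, which regulate Cd274, had 0 of 16 past limma's test in cDC2s, with a median of -0.17. At an unadjusted p under 0.05 there were 4 of the 16, against 1618 of all 12058 genes tested. Ifngr1, a subunit of the interferon gamma receptor and among the most abundant of the list, read 474 ± 55.4 and 403 ± 3.47 TPM. Genes of protein turnover and traffic of the ligands had 0 of 11 past the test (limma; 2 at an unadjusted p under 0.05), with a median of -0.20. Its most abundant genes were Cd74, the MHC class II invariant chain (15980 and 13290 TPM), and the ubiquitin-conjugating enzyme gene Ube2d3 (319 ± 52.8 and 328 ± 19.0 TPM). March1, whose product removes CD86 and MHC class II from the surface, read 86.4 and 71.0 TPM without overlap and did not pass (log2 fold change -0.28, limma's adjusted p = 0.230). Cmtm6, which stabilizes PD-L1, read 41.3 and 29.5 TPM, also without overlap (log2 -0.48, limma's adjusted p = 0.227). These 2 genes were named after their values were seen. MHC class II presentation genes had 0 of 11 past the test (limma; 4 at an unadjusted p under 0.05), and 0 of 11 had a positive log2 fold change, against 39.3% of all genes tested. Without overlap 9 of the 11 were lower, against 13.5% of all genes. Among them H2-Ab1 read 9941 ± 1419 and 8524 ± 136 TPM.

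Other ligands and counter-receptors for T cells had 1 of 16 lower and 0 higher (0.381% and 0.249% of all genes). Lgals9, encoding galectin-9, a ligand of the inhibitory receptor TIM-3, fell from 42.0, 37.1 and 44.0 TPM to 20.8, 20.8 and 19.3 TPM in Cd47ΔT cDC2s. The values were closely spaced within each genotype (log2 fold change -0.98 ± 0.13, limma's adjusted p = 0.0250). Tnfsf14, which encodes the TNF family ligand LIGHT, averaged 7.95 ± 2.75 and 1.26 ± 0.699 TPM without overlap and missed the threshold (log2 -1.99, limma's adjusted p = 0.0619); it was named after its values were seen. The receptor genes for the 7 ligands were nearly silent in cDC2s apart from Icos. Cd40lg and Pdcd1 were at 0 in all 6 libraries, and Cd28 and Ctla4 stayed under 1 TPM.

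**Figure D4:**
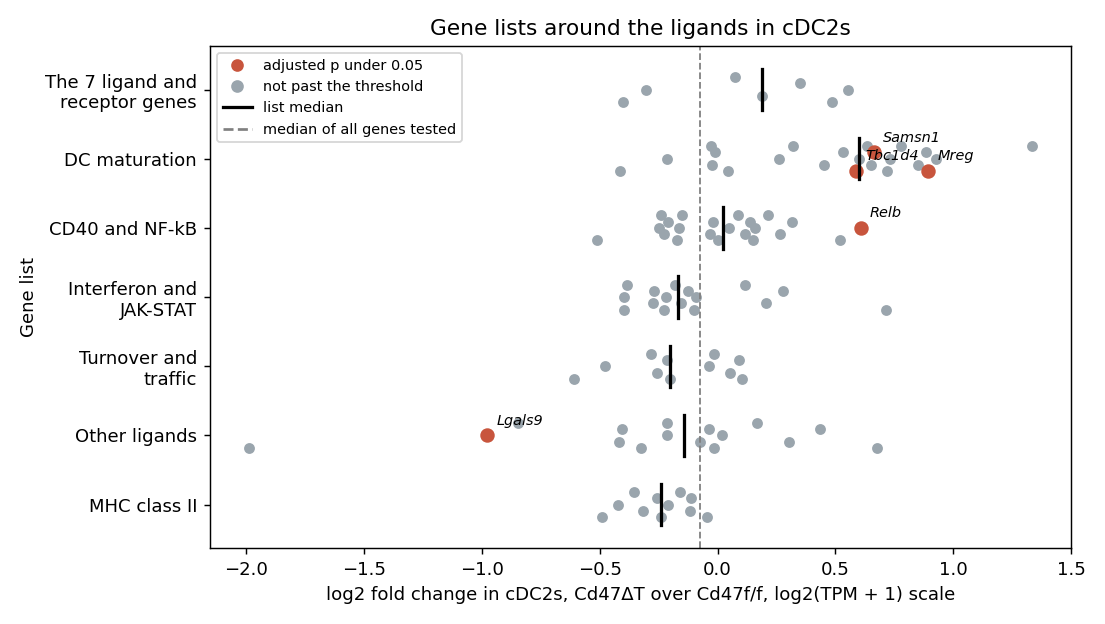
Log2 fold change in Cd47ΔT against control cDC2s (x axis, from log2(TPM + 1) values) of every tested gene of 7 lists; red points have an adjusted p under 0.05 and are named, black bars are list medians and the dashed line is the median of all genes tested. The maturation list has its median at 0.60 and the MHC class II list lies wholly below 0.

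The same genes were then read in T cells, whose libraries were made with another kit, so that cell type and kit cannot be told apart in levels. Each of the 7 genes was lower in control T cells than in control cDC2s, by 4.55 times for Cd274 and 5.38 times for Cd86, and by 115 times for Cd40. Cd274 was the most abundant of the 7 in control T cells, with 40.3% to 43.2% of their summed TPM, against 12.9% to 14.7% in control cDC2s. Summed over the 7 genes, control T cell libraries held 34.2 and 39.95 TPM and Cd47ΔT T cell libraries 90.7 and 92.0 TPM.

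In Cd47ΔT T cells, Cd83, Pdcd1lg2, Cd40, Cd80 and Icosl were higher by limma, where 9.37% of 12453 genes were called and 8.5% were called higher. Cd40 and Cd80 were under 1 TPM in both control libraries and passed the filter only through the Cd47ΔT libraries, so their calls are partly set by the filter. All genes but Cd274 were higher without overlap, as were 37% of all genes tested. The PD-1 ligand Cd274 stood at 13.8 and 17.2 TPM in control and 20.3 and 17.1 TPM in Cd47ΔT T cells, and these values overlapped (log2 fold change 0.26 ± 0.19, 95% interval -0.22 to 0.73, limma's adjusted p = 0.569). Its neighbour Pdcd1lg2 stood at 1.45 and 1.52 TPM in control and 9.22 and 5.56 TPM in Cd47ΔT T cells. It rose by 1.72 ± 0.28 on the log2 scale (limma's adjusted p = 0.0172).

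Cd83 had the largest log2 fold change of the 7, at 5.12 and 4.97 TPM in control and 33.6 and 31.5 TPM in Cd47ΔT T cells (log2 fold change 2.47 ± 0.17, limma's adjusted p = 0.00217). Icosl stood at 3.26 and 3.15 TPM in control and at 8.23 and 10.1 TPM in Cd47ΔT libraries (log2 1.27 ± 0.21, limma's adjusted p = 0.0191). Both genes had control values that nearly coincided. Cd86 stood at 9.30 and 11.96 TPM in control and at 15.2 and 19.7 TPM in Cd47ΔT libraries and did not pass (log2 0.66 ± 0.22, 95% interval 0.13 to 1.2, limma's adjusted p = 0.135). Cd80 stood at 0.59 and 0.96 TPM in control and at 3.45 and 3.20 TPM in Cd47ΔT libraries (log2 1.29 ± 0.23, limma's adjusted p = 0.0243). Cd40 stood at 0.68 and 0.15 TPM and at 2.08 and 3.52 TPM (log2 1.42 ± 0.31, limma's adjusted p = 0.0407). Both remained under 4 TPM in every T cell library.

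Some of these calls rested on single libraries or on the setting. That of Cd40 ended without control library 1 (limma's adjusted p = 0.0724) or 2 (0.0942), with no filter (0.129), with a pseudocount of 0.1 (0.0702) and under quantile (0.127) or median-of-ratios scaling (0.0655), with 3.88e-06 to 0.129 over all its alternatives. Those of Cd80 and Pdcd1lg2 ended without control library 1 (0.0745 and 0.0673), with no filter (0.0926 and 0.0985) and under quantile scaling (0.0621 and 0.0603), and that of Icosl without Cd47ΔT library 2 (0.113) and with no filter (0.0961). The call of Cd83 ended with no filter alone (limma's adjusted p = 0.0565, from 6.81e-26 to 0.0565 over all its alternatives).

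Markers of other spleen cells moved in the same T cell libraries. Of 83 markers of cell types other than T cells, some of which T cells also express, 79 were higher without overlap in Cd47ΔT T cells. Of all genes tested 37% were, but some of the 83 markers did not pass the filter for testing, so the 2 shares have unlike bases. Among the 11 T cell markers 2 were higher and 5 lower without overlap. The share of all genes lower without overlap was not counted in T cells. Limma called 0 of the 11, and their median log2 fold change was -0.0824, against 0.10 over all genes tested. Summed B cell markers (10 genes) went from 17.5 to 21.5 TPM in controls to 66.5 to 145 TPM, red pulp macrophage markers (10) from 23.4 to 28.9 to 176 to 276 TPM, and monocyte markers (8) from 612 to 767 to 1797 to 1870 TPM. The cDC2 markers (12) summed to 143 to 154 TPM in control and 156 to 185 TPM in Cd47ΔT T cells. Of these 12, 11 were higher and 1 was lower without overlap, and among the 9 tested 8 were higher and 1 lower. By limma 7 of the 9 tested were called higher, against 8.5% of all genes, and 0 lower, and their median log2 fold change was 1.5. Clec4a4, among the 11 higher, was the one at 0 in both controls, and it read 0.13 and 0.28 TPM in Cd47ΔT libraries. MHC class II genes, which antigen-presenting cells express, rose in 5 of 11 (0 fell), against 8.5% of all genes called higher. H2-Ab1 rose from 6.76 ± 1.02 to 85.8 ± 38.8 TPM (SD, n = 2, log2 fold change 3.42 ± 0.32, limma's adjusted p = 0.00461). H2-Aa rose by 3.31, H2-Eb1 by 3.14 and the invariant chain gene Cd74 by 3.31 on the log2 scale (limma's adjusted p = 0.00543, 0.00655 and 0.00415), and these 4 calls ended with no filter (0.0693 to 0.0743). The libraries also differed by genotype without overlap in their mitochondrial share, 7.06% and 6.62% in control against 4.15% and 4.43% in Cd47ΔT libraries. Small non-coding RNAs took 0.191% and 0.232% in control and 0.303% and 0.515%, and 11514 and 11848 against 12446 and 12594 genes reached 1 TPM. The part of these markers and shares in the rise of the 5 ligand and receptor genes was not tested.

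The size of these levels was set against cDC2s of the same genotype. H2-Ab1 in Cd47ΔT T cells amounted to 1.01% of its cDC2 level, Cd74 to 2.16% and Ciita, the master regulator of MHC class II, to 0.843%. In controls these were 0.068%, 0.172% and 0.101%. Cd274 and Cd86 were at 20.7% and 21.5% in Cd47ΔT mice and already at 22.0% and 18.6% in controls. From control to Cd47ΔT, Icosl went from 2.19% to 5.50%, Cd40 from 0.873% to 7.36%, Cd80 from 3.29% to 13.4%, Cd83 from 3.52% to 15.9% and Pdcd1lg2 from 6.28% to 42.3%. Within the class II list H2-DMa, at 10.1% and 18.9%, and H2-DMb1, at 1.01% and 8.28%, were in the range of the 7 genes. Within the Cd47ΔT pair, library 2 held 113 and library 1 58.4 TPM of H2-Ab1. Cd40, Cd86 and Icosl were also higher in library 2, whereas Cd83, Cd80, Cd274 and Pdcd1lg2 were higher in library 1. These percentages span 2 library kits and other antigen-presenting cells than cDC2s, so they describe levels only.

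**Figure D5:**
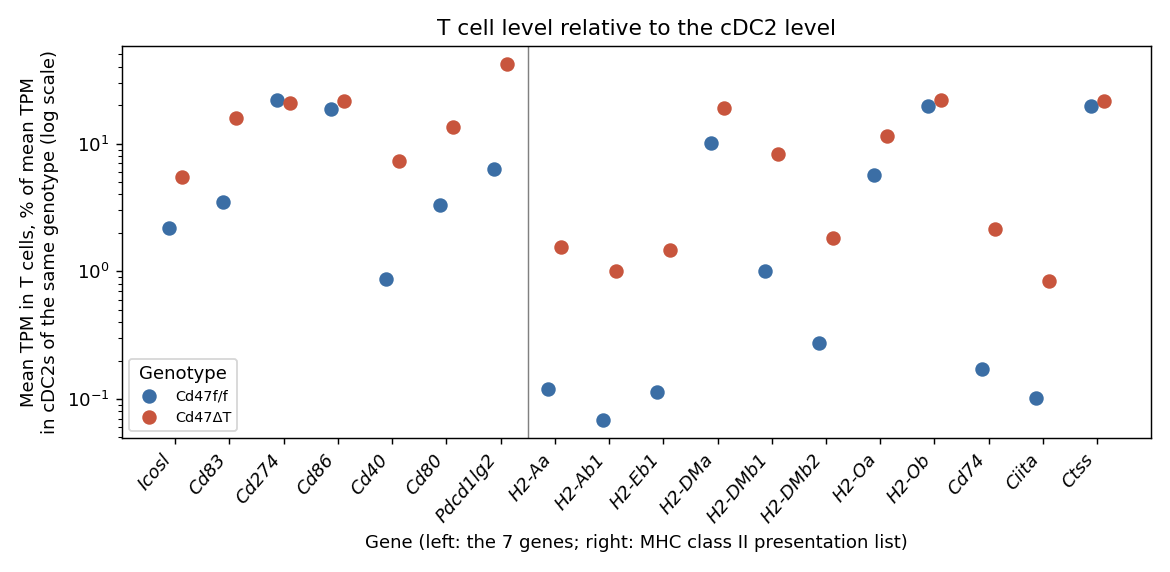
Mean TPM in T cells as a percentage of mean TPM in cDC2s of the same genotype (log axis) for the 7 genes (left of the line) and the 11 MHC class II presentation genes (right), coloured by genotype. In Cd47ΔT mice the 7 genes lie between 5.50% and 42.3%. H2-Ab1 lies at 1.01%, while H2-DMa and H2-DMb1 of the class II list lie within the range of the 7 genes.

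The receptors for these ligands also differed in T cells. Of 5 receptor genes, 2 rose and 1 fell, against 1058 called higher and 109 lower of all 12453 genes tested. Pdcd1, encoding PD-1, stood at 7.25 and 6.96 TPM in control and 55.0 and 32.1 TPM in Cd47ΔT T cells (log2 fold change 2.41 ± 0.27, limma's adjusted p = 0.00753). Ctla4, the inhibitory receptor for CD80 and CD86, stood at 18.3 and 14.8 TPM in control and 54.6 and 38.2 TPM in Cd47ΔT libraries (log2 1.42 ± 0.22, limma's adjusted p = 0.0153). That call ended without Cd47ΔT library 1 (limma's adjusted p = 0.0501, from 4.87e-12 to 0.0890 over all alternatives). Cd40lg, the ligand that CD40 on dendritic cells receives, fell from 42.0 and 37.8 TPM to 13.6 and 10.01 TPM (log2 fold change -1.69 ± 0.20, limma's adjusted p = 0.00790). The activating receptors did not pass, with Cd28 at 101 ± 20.5 and 70.0 ± 5.94 TPM and Icos at 38.0 ± 6.85 and 51.5 ± 8.42 TPM. Among the other ligands, the TIM-3 gene Havcr2 and Tnfsf14 rose (log2 1.59 ± 0.26 and 0.93 ± 0.20). Their calls ended without control library 1 (limma's adjusted p = 0.0643 and 0.0628), and that of Tnfsf14 also without Cd47ΔT library 1 (0.295) or 2 (0.213). With no filter on low values all 5 of these calls ended (limma's adjusted p from 0.0730 to 0.122). That of Tnfsf14 also ended in 1 fit of all libraries (limma's adjusted p = 0.184). Havcr2 was low in T cells. Its log2 fold change went from 2.66 with a pseudocount of 0.1 to 0.63 with 5, and a filter of 5 TPM left no value for it. Its call may thus be partly set by the filter, like those of Cd40 and Cd80. Of the CD40 and NF-kB signalling genes, 0 of 22 passed in T cells by limma. At an unadjusted p under 0.05 there were 3 of them, against 2693 of all 12453 genes. The most abundant were Nfkbia, an inhibitor of NF-kB (159 and 173 TPM), and the subunit gene Nfkb1 (117 and 130 TPM). Of the interferon and JAK-STAT genes 1 of 16 fell, the interferon gamma receptor subunit Ifngr2 (23.9 and 13.2 TPM, log2 fold change -0.81 ± 0.18, limma's adjusted p = 0.0424). That call ended on leaving out any 1 of the 4 libraries (limma's adjusted p from 0.0504 to 0.389).

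Of the turnover list 2 of 13 rose in T cells and 0 fell, Cd74 and March1, where 8.5% of all genes tested rose. March1 stood at 0.29 and 0.51 TPM in control and 2.14 and 4.6 TPM in Cd47ΔT T cells (log2 fold change 1.59 ± 0.33, limma's adjusted p = 0.0346), so it too passed the filter through the Cd47ΔT libraries. Its call ended without control library 1 (0.119) or 2 (0.0722), with no filter (0.126), a pseudocount of 5 (0.0571) or quantile scaling (0.0814). Of the maturation list 6 of 19 rose and 1 fell in T cells, against 1058 higher and 109 lower of all 12453 genes. Cst7, a cystatin gene that cytotoxic lymphocytes also express, went from 87.3 ± 2.04 to 161 ± 1.37 TPM (SD, n = 2; log2 0.88 ± 0.11), Samsn1 from 24.1 to 47.9 TPM (log2 0.97 ± 0.15) and the actin-binding protein gene Marcks from 1.04 to 4.31 TPM (log2 1.37 ± 0.25). Ccr7, which naive T cells also use to enter lymphoid tissue, fell from 416 ± 25.8 to 286 ± 0.502 TPM (log2 fold change -0.54 ± 0.0996, limma's adjusted p = 0.0257). The calls of Samsn1 and Ccr7 ended without Cd47ΔT library 1 (limma's adjusted p = 0.102 and 0.202) or 2 (0.0800 and 0.201), and that of Marcks without control library 1 (0.0805) or Cd47ΔT library 2 (0.0543). With no filter all 4 ended (0.0608 to 0.106), and in 1 fit of all libraries so did those of Cst7 (0.0990) and Ccr7 (0.141). Median-of-ratios scaling (0.0524) and no variance trend (0.104) ended that of Ccr7, and quantile scaling (0.0549) that of Marcks.

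Whether the genotype acted differently on the 7 genes by cell type was tested as an interaction in 1 limma fit of all libraries. It takes 1 spread per gene over both kits, so its p-values rest on the kits sharing that spread. Of 10650 genes 5.7% passed. Over all these genes the median difference was 0.187 and 70.7% were positive. The effect was larger in T cells than in cDC2s for Cd83 (difference 1.92 ± 0.28 on the log2 scale, limma's adjusted p = 0.00210), Pdcd1lg2 (2.12 ± 0.37, 0.00518), Icosl (1.08 ± 0.20, 0.00660) and Cd40 (1.73 ± 0.36, 0.0147). Cd40 entered this test through its Cd47ΔT T cell libraries alone, its T cell controls being under the filter, so its call is partly set by the filter. For Pdcd1lg2 and Cd40 the signs were opposite, each with a negative value in cDC2s, which did not pass the test, and a positive one in T cells. Cd80 did not pass (1.22 ± 0.36, limma's adjusted p = 0.0769). Neither did Cd86 and Cd274, with differences of 0.18 (95% interval -0.45 to 0.81) and -0.0928 (-0.59 to 0.40). The result for Cd40 did not pass without T cell control library 2 (limma's adjusted p = 0.0568) or Cd47ΔT library 2 (0.10, from 0.0109 to 0.124 over all alternatives). That for Icosl did not pass without Cd47ΔT library 2 (0.0538, from 0.00264 to 0.0833). Those for Cd83 and Pdcd1lg2 passed in all 20 alternatives (0.00109 to 0.0168 and 0.00267 to 0.0360).

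Finally, genes with the most similar profile over the 10 libraries were listed, among 11587 other protein-coding genes, by the root mean square difference of centred log2(TPM + 1) values. Cd274 was nearest to Sestd1 (0.133), Myo9b (0.150) and the kinase gene Jak2 (0.155), which transmits interferon gamma signals and stood at 215 and 261 TPM in control and Cd47ΔT cDC2s. Cd86 was nearest to Pcyt1a (0.165), Adgrg6 (0.199) and Ptprs (0.201), and among the 7 genes its closest was Cd274 (0.231). Cd83 was nearest to Bhlhe40 (0.293), a transcription factor gene that read 2.43 and 19.95 TPM in control and Cd47ΔT T cells and 102 and 176 TPM in cDC2s. Icosl was nearest to the Toll-like receptor adaptor gene Ticam2 (0.148), Cd80 to Smim3 (0.188), Cd40 to Lrrk1 (0.208) and Pdcd1lg2 to Vill (0.219). Pdcd1lg2 was farther from any of the other 6 than they were from each other at their closest, with Cd274 nearest at 0.573. The difference between the cell types and their kits dominates these profiles.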

How the data were processed

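The deposited values are TPM made by the authors for 10 libraries. Per the submitters' processing notes, the GRCm38 build and the tools STAR, RSEM and DESeq2 were used, with no versions given. Per the labels' protocols, the cDC2 libraries came from a SMART-seq stranded kit and those of T cells from a TruSeq stranded kit. Symbols and positions came from GENCODE M21, which matched 98.8% of 45706 identifiers.

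Each cell type was fitted separately with limma 3.58.1 in R 4.3.3, using log2(TPM + 1) values of genes that reached 1 TPM in 3 cDC2 or 2 T cell libraries (lmFit, and eBayes with a variance trend), with genotype as the only term and Benjamini-Hochberg adjustment over all genes tested. An adjusted p under 0.05 was called. The difference between cell types was an interaction term in 1 fit of all libraries. The scale understates changes of low genes, and with TPM the precision that depth gives is unknown. The steps were tested on simulated data. Named from each gene list were up to 4 called genes with the smallest p, or otherwise the 2 most abundant; 1 gene that the rule names is not reported here. The 7 genes and the lists were chosen with earlier results of these data known. Alternatives were other pseudocounts, filters, scalings and variance trends, a joint fit, the replicate number as a block and leaving out each library. Scaling to protein-coding genes was added after seeing the data. Python 3.11.15, numpy 2.4.6, pandas 2.3.3 and matplotlib 3.10.9 made tables and figures.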

Additional observations from a re-analysis of the deposited data

Results flagged for a closer look

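For 4 of the 7 genes the genotype effect differed between the cell types by limma's interaction test. The effect in T cells minus that in cDC2s was 1.73 on the log2 scale for Cd40, 1.92 for Cd83, 2.12 for Pdcd1lg2 and 1.08 for Icosl. Cd40 passed the T cell filter through the Cd47ΔT libraries alone, which partly sets its result. Cd40 and Pdcd1lg2 had opposite signs in the 2 cell types. The cell types were sequenced with different kits, and markers of other spleen cells were higher in the same Cd47ΔT T cell libraries. The part of either in these differences was not tested.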

How the results depend on the processing

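In cDC2s none of the 7 genes was called in any of 119 alternative values, and 117 kept their direction. Cd80 turned to -0.0902 without control library 1 and to -0.0536 without Cd47ΔT library 3, and Ube2d3 to -0.0753 without control library 1. Over the libraries left out they reached up to 0.25 (Cd80) and 0.17 (Ube2d3). In T cells all 103 values of the 7 genes kept their direction, and 15 lost and 1 gained a call. That one was Cd86 with the replicate block (limma's adjusted p = 0.0197). Nfkbia turned to -0.0281 under median-of-ratios scaling and to -0.0166 without control library 1, and Nfkb1 to -0.0107 without that library, with 0.27 and 0.34 at the other end of the range. Of 138 values of the difference, Cd86 turned to -0.0718 under quantile and -0.0441 under median-of-ratios scaling and to -7.63e-05 without Cd47ΔT T cell library 2. Cd274 turned to 0.0599 without T cell control library 2 and to 0.0248 without Cd47ΔT T cell library 2. The other ends of the ranges over left-out libraries were 0.36 for Cd86 and -0.25 for Cd274. That of Cd40 did not pass with a pseudocount of 5 (limma's adjusted p = 0.117) or under quantile scaling (0.124), nor did that of Icosl (0.0774 and 0.0833), while Cd80 passed with a pseudocount of 0.1 (0.0173) and with the replicate block (0.0493).

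Of all genes, 76 were called in cDC2s, 6 with no filter, 12 without the variance trend, 171 in 1 fit of all libraries and 4 with the replicate block, which ended the calls of Relb, Mreg, Samsn1, Tbc1d4 and Lgals9 (limma's adjusted p from 0.0769 to 0.120), and 0 to 14 without 1 library. The count was 0 without control library 1, Cd47ΔT library 1 or Cd47ΔT library 3, with 1322, 1277 and 1371 genes at an unadjusted p under 0.05 by limma. In T cells 1167 were called, 15 with no filter, 758 when filtered at 5 TPM and 2296 with the replicate block, and 725 (without control library 1) to 1568 without 1 library. For the difference 607 passed, 395 with a filter of 5 TPM and 401 under quantile scaling, and 302 (without Cd47ΔT T cell library 2) to 607 without 1 library. The cause was not tested. Scaling moved the median of all genes in T cells from 0.10 to -0.0789 (quantile) and -0.0408 (median-of-ratios), and the split of higher and lower calls from 1058 and 109 to 672 and 327 and to 946 and 264. In cDC2s the split moved from 30 and 46 to 37 and 37 and to 40 and 35. Same-numbered cDC2 libraries deviated together at r of -0.0438, 0.0591 and 0.119, and differently numbered ones at -0.137 to 0.119. The numbers were thus not taken to pair the cDC2 samples. Same-numbered T cell libraries stood at 0.19 and the others at -0.19. With 2 libraries per genotype these are equal and opposite by construction, so the check cannot decide pairing in T cells, and none was used. A filter of 5 TPM left no T cell value for Cd40 and Cd80.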

Other observations

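Icos, best known as a T cell receptor for the ligand encoded by Icosl, was detected in cDC2s. It stood at 7.33, 8.32 and 5.49 TPM in control and at 12.5, 15.85 and 13.8 TPM in Cd47ΔT cDC2s, without overlap. The means were 7.05 ± 1.44 TPM in control and 14.1 ± 1.68 TPM in Cd47ΔT cDC2s (SD, n = 3; log2 fold change 0.91 ± 0.21, limma's adjusted p = 0.115, from 0.0444 to 0.267 over all alternatives). Of the 11 T cell markers Cd3g and Bcl11b were at 0 in all 6 libraries. The 11 summed to 16.7 to 23.4 TPM in control and 19.5 to 23.1 TPM in Cd47ΔT cDC2s, mostly through Cd5 (11.7 to 21.8 TPM), and the T cell receptor gene Trac reached 4.03 TPM and Lck 5.04 TPM in Cd47ΔT library 2. The part of T cell RNA in the Icos values was not tested.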
